A study of Homo sapiens with 3 samples.

Results

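SNORA22 (ACA22) and SNORA36B (ACA36B) are box H/ACA small nucleolar RNAs (snoRNAs) whose reads in small RNA libraries of HEK293 cells were mostly of microRNA (miRNA) size. The 2 members were chosen by name from 260 snoRNA entries, of which 92 were box H/ACA entries, because earlier counts of the same data showed most of their reads at 20 to 24 nt. Read length therefore chose them and is given here as a description. The series holds 3 libraries of HEK293, an established line of human embryonic kidney cells, which form 1 group with no treatment and no second cell type. The cells were grown in DMEM with foetal bovine serum, and small RNA was purified on beads from phenol and chloroform extracted total RNA before ligation of adapters for Ion sequencing. Separate cultures are not mentioned in the labels, and the spread between libraries may be technical.

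Box H/ACA snoRNAs fold into a pair of hairpins joined by a hinge with the box H, and end in a short tail with the box ACA. With the proteins dyskerin, NOP10, NHP2 and GAR1 they guide the conversion of uridine to pseudouridine in ribosomal RNA. Some H/ACA RNAs and their Cajal body relatives (scaRNAs) have been described as sources of miRNA-like RNAs that Dicer cuts from one hairpin and Argonaute proteins bind. The miRNA gene MIR664A overlaps SNORA36B on the same strand, so that the arms of the miRNA hairpin lie in the snoRNA.

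The whole snoRNAs are shown from 5′ to 3′ because the place of the short reads is the finding, and capitals mark the fragment with the most reads in each (GENCODE 29 transcripts, GRCh38).
SNORA22: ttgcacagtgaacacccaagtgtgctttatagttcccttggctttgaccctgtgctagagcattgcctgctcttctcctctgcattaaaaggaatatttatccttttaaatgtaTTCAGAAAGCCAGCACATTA
SNORA36B: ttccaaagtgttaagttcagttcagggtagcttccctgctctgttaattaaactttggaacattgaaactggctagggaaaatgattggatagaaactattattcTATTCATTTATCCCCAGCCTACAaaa
SNORA22 is 134 nt long and lies on the plus strand at chr7:65755526-65755659, in an intron of the transcribed pseudogene CCT6P1 and, on the opposite strand, of the pseudogene AC073107.1. SNORA36B is 131 nt long and lies on the minus strand at chr1:220200546-220200676, in an intron of RAB3GAP2, a gene for a subunit of a Rab GTPase-activating complex. The files give positions within the snoRNA and no read sequence, so letters here are those of the reference. For each member 2 combinations of library, length and ends were split over several records, with 2 reads of SNORA22 and 2 of SNORA36B in the smaller records, and how the reads of such records differed is not known.

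The mature miRNAs of both miR-664 genes are shown to place the SNORA36B reads (RefSeq, GRCh38.p14), and capitals mark the seed, bases 2 to 8, with which a miRNA pairs to its targets.
hsa-miR-664a-3p: uAUUCAUUuauccccagccuaca
hsa-miR-664a-5p: aCUGGCUAgggaaaaugauuggau
hsa-miR-664b-3p: uUCAUUUGccucccagccuaca
hsa-miR-664b-5p: uGGGCUAAgggagaugauugggua
No seed is shared among these 4 miRNAs. By exact match miR-664a-3p occupies positions 106 to 128 of SNORA36B, on chromosome 1 at 220200549 to 220200571, and miR-664a-5p occupies positions 68 to 91. The arms of miR-664b lie in the same way in SNORA36A (ACA36), a copy of SNORA36B within DKC1, the gene for dyskerin.

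Libraries 1, 2 and 3 held 19989, 11958 and 19092 snoRNA counts, of which 1298, 597 and 1739 fell on box H/ACA entries. Library 2 had more short reads than the others. Reads of 20 to 24 nt were 6.50% of its counts, and 2.66% and 3.09% of the counts of libraries 1 and 3. In no pair of libraries did the counts per entry agree within sampling noise, with a chi-square per degree of freedom between 10.5 and 13.3.

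SNORA22 had 15, 54 and 52 reads in libraries 1, 2 and 3, or 0.0750% (exact 95% binomial interval 0.0420% to 0.124%), 0.452% (0.339% to 0.589%) and 0.272% (0.203% to 0.357%) of the counts. SNORA36B had 6, 34 and 17 reads, or 0.0300% (interval 0.0110% to 0.0653%), 0.284% (0.197% to 0.397%) and 0.0890% (0.0519% to 0.143%). Both were lowest in library 1 and highest in library 2. Between these 2 libraries the counts of 184 entries differed beyond sampling noise (chi-square per degree of freedom 13.3). How many other entries differed as much as the members was not counted. The mean share was 0.266% ± 0.19 for SNORA22 and 0.134% ± 0.13 for SNORA36B (SD, n = 3). Without library 2 these means were 0.174% and 0.0595%. SNORA22 reads outnumbered SNORA36B reads 2.50, 1.59 and 3.06 times in libraries 1, 2 and 3, a mean log2 ratio of 1.20 ± 0.48 (SD, n = 3) with the same direction in 3 of 3 libraries. An exact sign-flip permutation test (two-sided) gave p = 0.25, the smallest value that 3 libraries allow. Ratios of the same direction in 3 libraries can give no other value, so the test decides nothing. The members were also chosen from these counts, and their ratio is a description. When each distinct combination of length and ends was counted once, the mean log2 ratio was -0.31 (exact permutation p = 0.75). The libraries then differed in direction, with 5, 3 and 5 such combinations of SNORA22 and 2, 9 and 8 of SNORA36B in libraries 1, 2 and 3. Since the reads carry no molecular identifiers, all intervals cover counting error only.

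Among short reads the differences between libraries were smaller. Of all snoRNA reads of 20 to 24 nt, SNORA22 made up 2.26%, 6.69% and 7.97% in libraries 1, 2 and 3, and SNORA36B 1.13%, 3.99% and 2.20%. SNORA22 varied 6.02-fold between libraries as a share of all counts and 3.53-fold as a share of the 20 to 24 nt reads, and SNORA36B 9.47-fold and 3.54-fold. As shares of all counts both members were highest in library 2, the library with the excess of short reads. Among reads of 20 to 24 nt SNORA22 was highest in library 3. Libraries 1 and 3 had 2.66% and 3.09% of counts at this size. Of all their counts SNORA22 made up 0.0750% and 0.272%, and SNORA36B 0.0300% and 0.0890%. The part of the excess of short reads in these shares was not tested. Together the members supplied 18, 83 and 60 of the 68, 141 and 114 box H/ACA reads of this size, or 26.5%, 58.9% and 52.6%. Library 1 was again the lowest.

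SNORA22 reads had mainly a single length. Reads of 20 nt numbered 11, 52 and 44 in libraries 1, 2 and 3, those of 21 nt 1, 0 and 3, and no read had 22 to 25 nt. The range of 20 to 24 nt held 80.0% of its reads in library 1 (interval 51.9% to 95.7%), 96.3% in library 2 (87.3% to 99.5%) and 90.4% in library 3 (79.0% to 96.8%). SNORA36B reads were longer and less uniform, with 23 nt (4, 14 and 5 reads) ahead of 24 nt (2, 12 and 5), 22 nt (0, 3 and 2) and 21 nt (0, 2 and 1). In SNORA36B this range held 100% of 6 reads in library 1 (interval 54.1% to 100%), 91.2% of 34 in library 2 (76.3% to 98.1%) and 76.5% of 17 in library 3 (50.1% to 93.2%). The lengths of the members hardly met, since SNORA22 had no read of 22 to 24 nt and SNORA36B none of 20 nt.

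**Figure D1:**
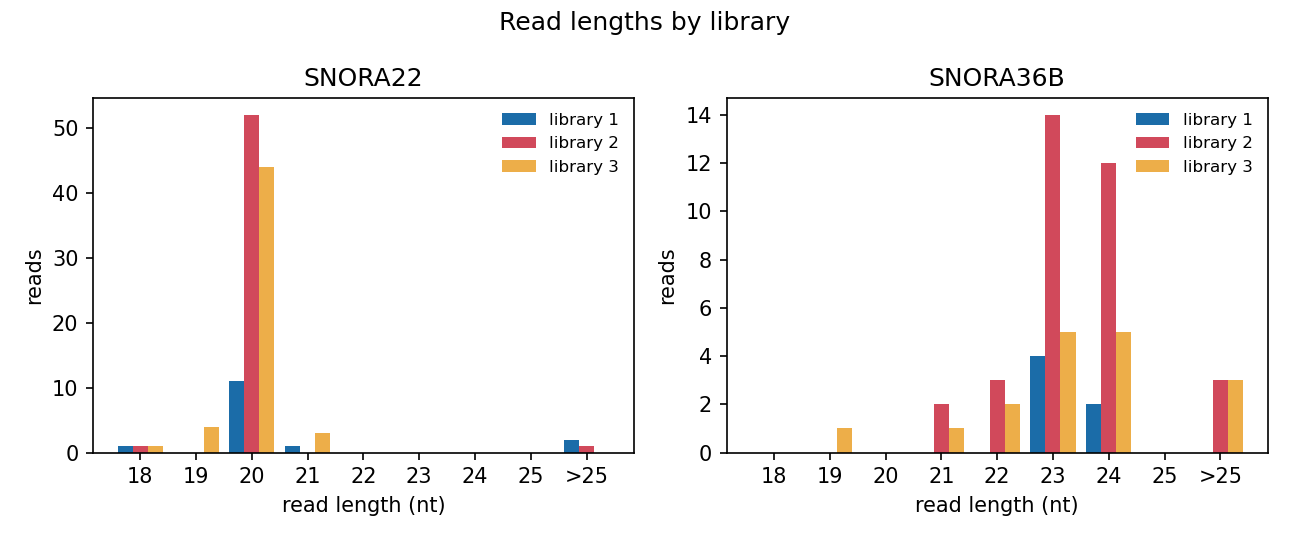
Number of reads (vertical axis) by read length in nt (horizontal axis) for SNORA22 and SNORA36B, with 1 bar per library and reads over 25 nt joined in the last class. SNORA22 reads stand at 20 nt in every library, with 11, 52 and 44 reads, and SNORA36B reads stand at 23 and 24 nt.

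The short SNORA22 reads formed the very end of the snoRNA. The fragment from position 115 to 134, the capitals above, had 11, 52 and 44 reads in libraries 1, 2 and 3 and accounts for all reads of 20 nt. It lies at chr7:65755640-65755659. The next fragments were far rarer: positions 114 to 134 had 1, 0 and 3 reads, 115 to 133 had 0, 0 and 3 reads, and 117 to 134 had 1 read in each library. In libraries 1, 2 and 3 the last base, position 134, ended 100%, 100% and 94.2% of SNORA22 reads, and position 115 began 73.3%, 96.3% and 90.4% of them. All 3 reads longer than 24 nt also ended at position 134, 2 of them spanning the snoRNA from position 1 and 1 starting at position 58. Only the 2 full-length reads touched the 5′ hairpin, and a count of 0 reads centred in the 5′ part of SNORA22 allows up to 2.48% of 121 reads, taking 3 counts as the floor. Full-length reads, which span at least 90% of the snoRNA, were thus 1.65% of SNORA22 reads. The median was 50% over the other 56 box H/ACA snoRNAs with at least 10 reads. Since SNORA22 was chosen for its short reads, its low share follows in part from that choice.

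SNORA36B reads lay on miR-664a-3p. They began at position 106, the first base of that miRNA, in 6 of 6, 29 of 34 and 12 of 17 reads, which is 100%, 85.3% and 70.6% in libraries 1, 2 and 3. The fragment from 106 to 128, identical in its limits to miR-664a-3p, had 4, 14 and 5 reads. The fragment from 106 to 129, with 1 more base, had 2, 11 and 5 reads, and that from 106 to 127, with 1 base less, had 0, 3 and 2 reads. All 50 reads of 20 to 24 nt matched the limits of miR-664a-3p to within 2 nt at both ends, and 23 matched them exactly. Reads that start at position 106 carry in the reference the seed printed above for miR-664a-3p, and those that start at 107 (1 read) or 108 (2 reads) would have a shifted one.

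Of the other arm, miR-664a-5p, 0 of 57 SNORA36B reads lay within it, which allows a share of up to 5.26%. Reads of SNORA36B longer than 24 nt were few, with 0, 3 and 3 in libraries 1, 2 and 3. All 6 ended at the last base of the snoRNA, position 131, where 0 of the 50 reads of 20 to 24 nt ended (up to 6% allowed). They started at 2 places. Reads of 68, 69 and 72 nt began at positions 64, 64 and 60 and hold both arms of the miRNA hairpin. Reads of 38, 39 and 40 nt began at positions 94, 93 and 92, which is 3, 2 and 1 nt after the last base of miR-664a-5p. No read was full length, with up to 5.26% allowed, and 1 read of 19 nt lay at positions 46 to 64, outside the 3′ hairpin. In all, 56 of 57 reads lay within the limits of the MIR664A hairpin.

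**Figure D2:**
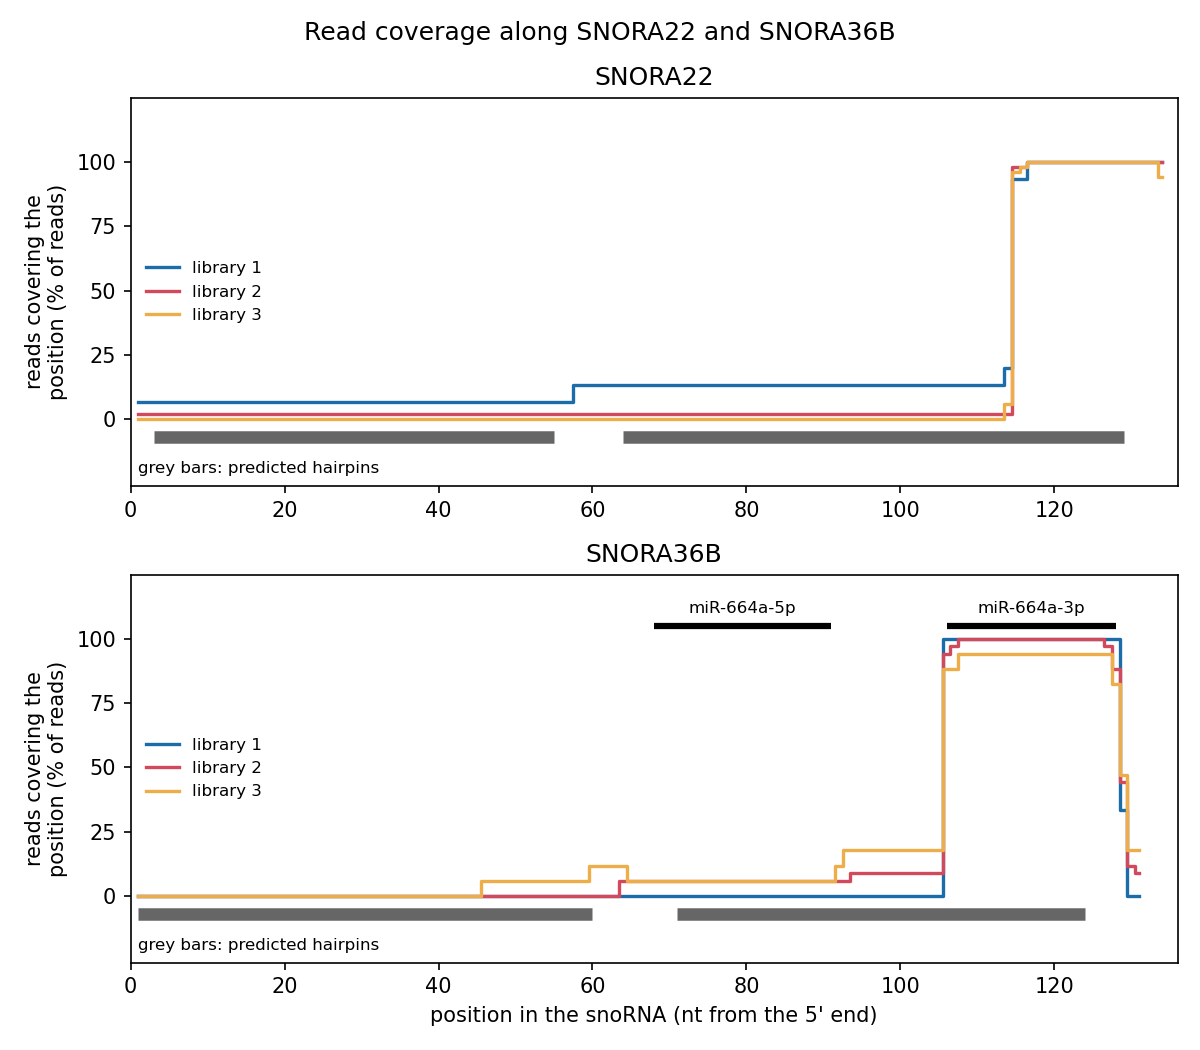
Share of the reads of SNORA22 and SNORA36B that cover each position (vertical axis, percent of the reads of that snoRNA in a library), by position in nt from the 5′ end (horizontal axis), with 1 line per library. Grey bars mark the predicted hairpins and black bars the arms of miR-664a, and the coverage stands over positions 115 to 134 of SNORA22 and 106 to 128 of SNORA36B.

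In both members the commonest start held most reads, while the end was nearly fixed in SNORA22 and looser in SNORA36B. The commonest end of SNORA22 exceeded the commonest start by 26.7, 3.70 and 3.85 percentage points in libraries 1, 2 and 3 (mean 11.4 ± 13, SD, n = 3), less than the spread between libraries. In SNORA36B the commonest end, position 128, held 66.7%, 44.1% and 35.3% of reads and was below the commonest start by 33.3, 41.2 and 35.3 percentage points, beyond the spread between libraries (SD 4.1). Over all libraries SNORA22 reads used 6 starts and 2 ends, and SNORA36B reads 9 starts and 7 ends. The other 67 box H/ACA snoRNAs and scaRNAs with at least 10 reads give a background. Their median share at the commonest start was 65.2%, against 90.9% for SNORA22 and 82.5% for SNORA36B. At the commonest end it was 72.7%, against 97.5% and 43.9%, and in the commonest fragment 41.4%, against 88.4% and 40.4%. By commonest fragment SNORA36B was thus close to the median. Since the positions had been seen before, these differences are given without a test.

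**Figure D3:**
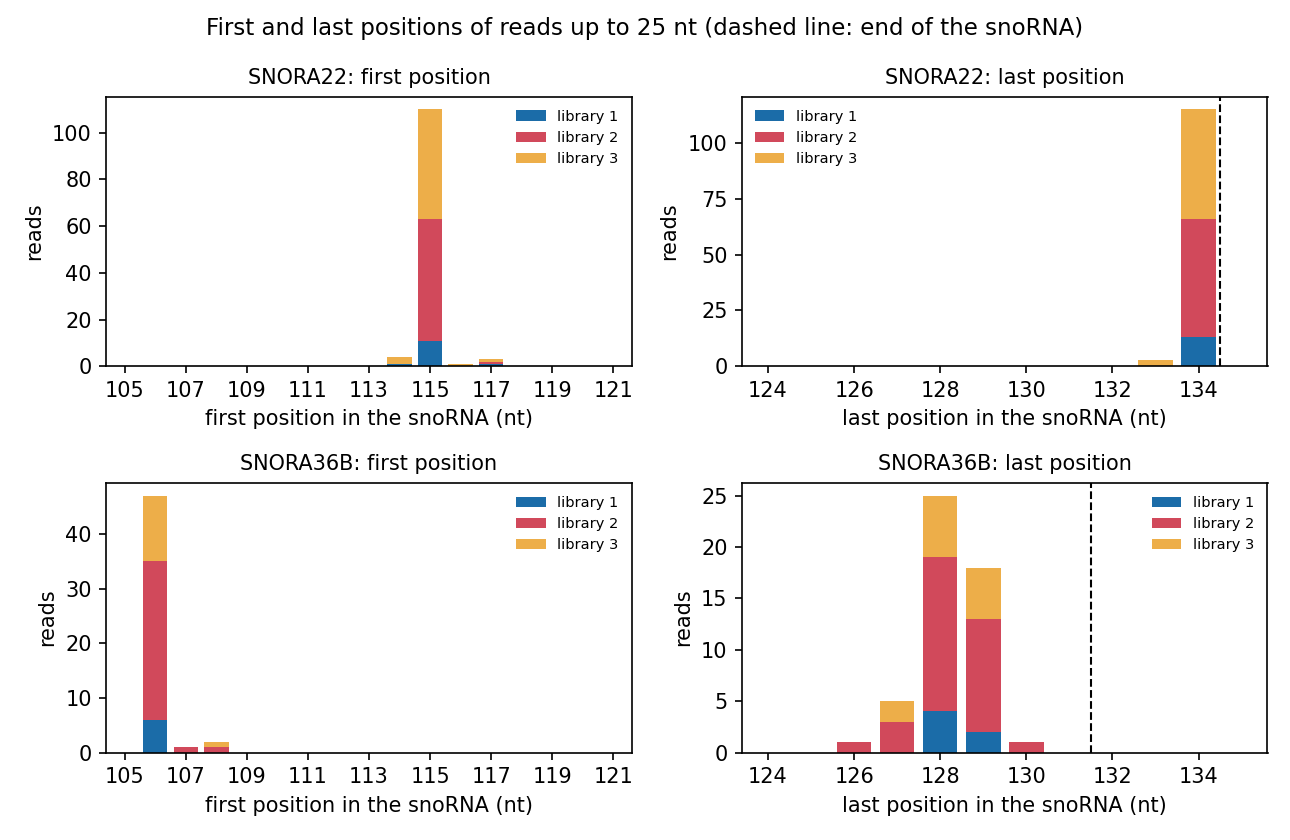
Number of reads up to 25 nt (vertical axis) by first and last position in the snoRNA (horizontal axes), stacked by library, for SNORA22 and SNORA36B. A dashed line marks the end of the snoRNA, the 19 nt read at positions 46 to 64 of SNORA36B lies outside the axis, and SNORA22 reads end at 134 while SNORA36B reads begin at 106 and end mostly at 128 or 129.

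The fragments also differed in how they sit in the 3′ hairpin and the tail. RNAfold predicted 2 hairpins for SNORA22, at positions 3 to 55 and 64 to 129, and 2 for SNORA36B, at positions 1 to 60 and 71 to 124. The 3′ hairpin of SNORA22 has its loop at positions 94 to 100, and the fragment starts 15 nt after it, takes the outer 15 nt of the 3′ arm and adds the 5 nt of the tail. In SNORA36B the loop lies at positions 96 to 102, and the fragment starts 4 nt after it, runs through 19 nt of the 3′ arm and ends with 4 nt of the tail. In the predicted folds 10 of 20 bases of the SNORA22 fragment and 17 of 23 bases of the SNORA36B fragment were paired, and the first base of the SNORA36B fragment paired with position 92. The folds are predictions for naked RNA without the snoRNA's proteins.

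Both fragments hold the box ACA. A search of the sense strand for the letters ACA 3 nt before the end placed it at positions 129 to 131 of SNORA22 and 126 to 128 of SNORA36B. This arrangement occurs in 75.2% of the 149 SNORA transcripts of the annotation. The SNORA22 fragment runs 3 nt past the box to the end of the RNA, and the commonest SNORA36B fragment stops at the last base of the box. For the box H letters ANANNA, searched on the sense strand between the predicted hairpins, a match was found at position 57 of SNORA22 and none in SNORA36B. These letters occur somewhere in 98.7% of the SNORA transcripts.

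Copies of both snoRNAs limit how far the reads can be traced to a gene. The last 30 nt of each copy are shown from 5′ to 3′ to compare the fragment. Capitals mark a stretch of the fragment's length at its distance from the 3′ end, without alignment. In SNORA36A and SNORA36C the first letters of the SNORA36B fragment therefore start just before the capitals.
SNORA22: tttaaatgtaTTCAGAAAGCCAGCACATTA
SNORA22B: tttaaatgtaTTCAGAAAGCCAGCACATTA
SNORA22C: tttaaatgtaTTCAGAAAGCCAGCACATTA
SNORA36B: attcTATTCATTTATCCCCAGCCTACAaaa
SNORA36A: ttctATTCATTTGCCTCCCAGCCTACAaaa
SNORA36C: ttttATTCATTTGCCTCCCAGCCTACAaaa
The SNORA22 fragment is identical in SNORA22B, in an intron of the chaperonin subunit gene CCT6A (tail at chr7:56055473-56055502), and SNORA22C, in an intron of the pseudogene CCT6P3 (tail at chr7:65066103-65066132). Its reads are counted under the SNORA22 entry, but their gene of origin cannot be told apart. Among 206694 annotated transcripts the SNORA36B fragment matched only SNORA36B and MIR664A exactly. SNORA36A, on chromosome X, had 1, 3 and 1 reads in libraries 1, 2 and 3, and SNORA36C was not among the entries with reads. The SNORA36A read of library 1 had 19 nt and lay at positions 108 to 126, starting at the first base of miR-664b-3p, while the other 4 reads had between 60 and 132 nt.

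In the table of miRNA and snoRNA counts, read for library 1, SNORA22 was listed with 15 counts, the same number as in the records by position. Among its 137 miRNA names, 0 were miR-664, and the lowest miRNA count was 11, against 6 SNORA36B reads in that library. SNORA36B itself was not listed, and the smallest snoRNA count listed was 12. A name missing there therefore does not mean that the library held no reads of it.

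Other box H/ACA snoRNAs had few short reads. Without both members, 3.92%, 11.4% and 3.23% of box H/ACA reads had 20 to 24 nt in libraries 1, 2 and 3. Of 69 box H/ACA snoRNAs and scaRNAs with at least 10 reads, SNORA36B and SNORA22 ranked just behind the scaRNA SCARNA15 by mean share of such reads (89.2% ± 12 and 88.9% ± 8.2, SD, n = 3). The other 67 had a median of 3.21%, and 18 had no such read. The members were chosen for such reads, so their rank is a description. By number, SNORA22 (111 reads) and SNORA36B (50) led the box H/ACA snoRNAs, ahead of SNORA27 (25) and SNORA75 (21), which were singled out after their values were seen.

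**Figure D4:**
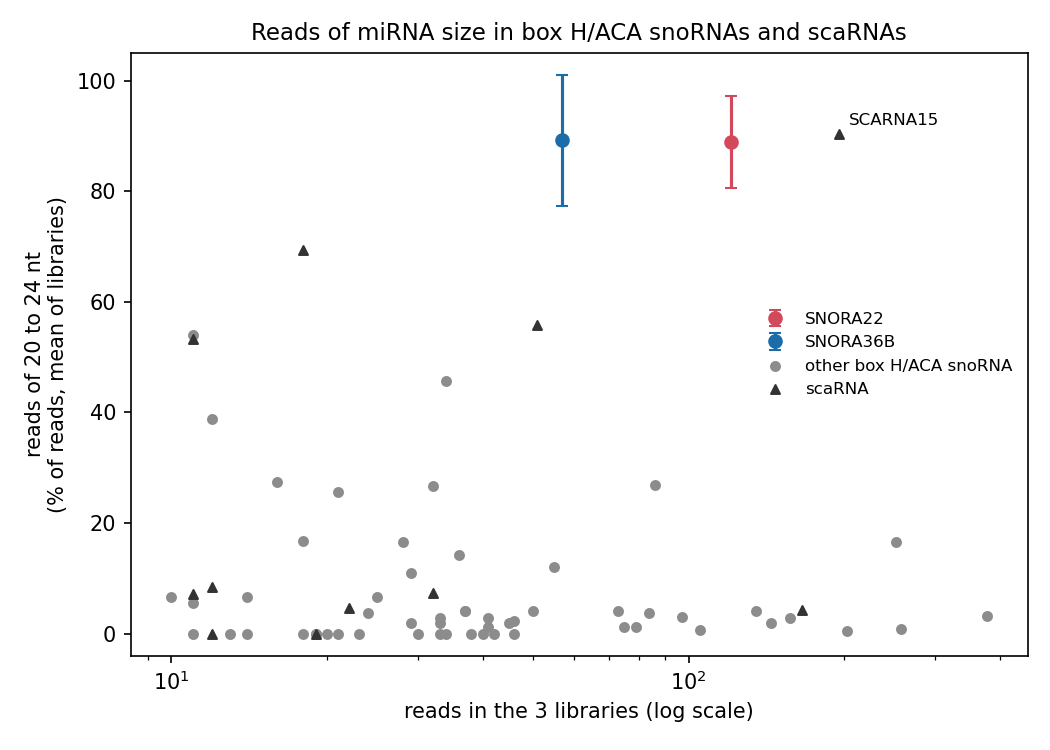
Mean share of reads of 20 to 24 nt over libraries (vertical axis, percent) against the number of reads in 3 libraries (horizontal axis, log scale) for SNORA22, SNORA36B and the other 67 box H/ACA snoRNAs and scaRNAs with at least 10 reads. Error bars are SD over 3 libraries and are drawn for the members only, which stand at 88.9% and 89.2% near SCARNA15, while the median of the others is 3.21%.

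Short reads that end at the last base also occurred in other box H/ACA snoRNAs. In SNORA22 all 111 reads of 20 to 24 nt ended at the last base and in SNORA36B 0 of 50 did, against 15 of 50, 38 of 58 and 36 of 54 in the remaining box H/ACA snoRNAs in libraries 1, 2 and 3 (mean 54.1% ± 21, SD, n = 3), where the last base was taken as the highest position seen. The commonest fragments of SNORA27 (positions 103 to 126, 13 reads) and SNORA75 (positions 115 to 137, 8 reads) also ended there, and without these snoRNAs 52 of 116 such reads over all libraries did, chosen after seeing the data. In SCARNA15 the commonest such fragment lay at positions 65 to 86 of 127, 41 nt before the end. Although none reached the last base, all 50 SNORA36B reads of 20 to 24 nt ended within 5 nt of it. In the other 56 box H/ACA snoRNAs with at least 10 reads, 96 of 152 such reads (63.2%) did so.

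Read-length profiles were compared by total variation distance, which is 0 for equal and 1 for separate profiles. SNORA36B was nearest to SCARNA18 (0.559), the E3 entry (0.614) and SCARNA15 (0.654), against a median distance of 0.948 over 68 RNAs. SNORA22 had no close neighbour, with SNORA73A (0.800), SNORA10 (0.816) and the E3 entry (0.886) nearest and a median of 0.959. SCARNA18 had only 11 reads and E3 34, of which libraries 1 and 2 held 2 and 6 with the same weight as the 26 of library 3. Over all libraries 50 of 57 SNORA36B reads had 20 to 24 nt, against 4 of 11 for SCARNA18 and 5 of 34 for E3, so these neighbours rest on few reads. All these distances come from the 3 libraries that chose the members.

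Box H/ACA RNAs that have been described as sources of miRNA-like RNAs, or that overlap a miRNA gene, did not all have reads of this size. All 10 listed RNAs had reads, and 6 had any of 20 to 24 nt. By mean share SCARNA15 (184 of 195 reads), SCARNA3 (10 of 18) and SCARNA16 (16 of 51) were ahead of SNORA50A (1 of 11), SNORA3A (2 of 37) and SNORA81 (3 of 84). SNORA84 (40 reads), SNORA56 (7 reads), SNORA34 (3 reads) and SCARNA8 (2 reads) had none. By mean share SNORA36B (50 of 57) and SNORA22 (111 of 121) stood above 9 of the 10 listed RNAs, SCARNA15 being the exception. The members were chosen for reads of this size in the same libraries, so their place was partly set by the choice. It is given as a description.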

How the data were processed

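Small RNA of 3 HEK293 libraries was analysed, numbered as in their titles. In the deposited records the values are raw counts of reads, per the file headers, by snoRNA entry, read length and first and last position. Per the submitters' processing notes the genome build was GRCh38.p10. The sources used here do not give the aligner, the filters or how reads matching several copies were placed. Of a second deposited table of counts, 2 columns matched no sample and were not used.

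RefSeq symbols and synonyms (GRCh38.p14) named the entries. Positions were read against GENCODE 29 transcripts, whose lengths equal the highest position seen for both members. Exact Clopper-Pearson intervals (95%) were computed for shares in each library, and means weight libraries equally. The member ratio was tested with an exact sign-flip permutation test, tested on made-up values beforehand. No test was run across snoRNAs. Folds came from RNAfold 2.7.2. Other software was SciPy 1.17.1, NumPy 2.4.6, pandas 2.3.3 and matplotlib 3.10.9 under Python 3.11.15.

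The members and lists were chosen with earlier results of these data known. Named fragments were the 3 most abundant per member, named likenesses the 3 nearest RNAs with at least 10 reads, and the list was named in full. Rarer fragments were named after their values were seen. Alternatives were leaving out a library, only ungapped reads, 18 to 25 nt, distinct records and another denominator.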

Additional observations from a re-analysis of the deposited data

How the results depend on the processing

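Of 47 alternative values, 38 moved by less than the SD between libraries or, for the ratio, kept its direction. Most of these 38 outcomes were fixed in advance and say nothing of robustness. With 3 libraries, leaving out any of them cannot move a mean by as much as the SD. Nor can it reverse a ratio that has the same direction in every library. SNORA22 had no gapped read, so keeping only ungapped reads could not change its shares by length, start or end. Counting each distinct combination of length and ends once moved the share of 20 to 24 nt reads to 37.8% (SNORA22) and 72.2% (SNORA36B), that of the commonest start to 31.1% and 60.6%, and that of the commonest end to 93.3% and 32.4%, and turned the log2 ratio of SNORA22 to SNORA36B counts to -0.31. It gives a fragment with 107 reads the same weight as one with 1 read. As shares of box H/ACA counts in place of all counts the members had 4.40% and 2.38%, a change of denominator. Leaving out each library in turn gave 0.174% to 0.362% and 0.0595% to 0.187% for the shares of counts, 85.2% to 93.3% and 83.8% to 95.6% for reads of 20 to 24 nt, 81.9% to 93.3% and 77.9% to 92.6% for the commonest start, 97.1% to 100% and 39.7% to 55.4% for the commonest end (SNORA22, then SNORA36B), and 0.99 to 1.47 for the log2 ratio. SNORA36B had 6 reads in library 1, which limits every share there.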
